A study of Mus musculus with 9 samples.

Results

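Caffeine-treated Tg4-42 mice were compared with untreated Tg4-42 mice at the level of RNA from sorted hippocampal neuronal nuclei, and the caffeine effect was described across all genes. The comparison was made of every library labelled as caffeine-treated transgenic and every library labelled as transgenic with no treatment, which gave 3 libraries against 3, or 6 of the 9 libraries in the series. The other 3 libraries came from wild-type (WT) mice and entered the same fit, which shares 1 estimate of the spread, and are given as a reference. Exon counts were available for 48709 genes, and 17361 of them held enough counts to be tested.

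Tg4-42 mice are C57BL/6J mice that overexpress human Aβ4-42, an amyloid β peptide that lacks its first residues. Per the study's methods, the murine Thy1 promoter drives the transgene, the peptide is fused to the murine thyrotropin releasing hormone signal peptide, and the mice are homozygous. Both Tg4-42 groups therefore carry the transgene. Treated mice drank water with 300 mg/l caffeine for 4 months, from 2 to 6 months of age, and the controls, named vehicle here after the study's methods, drank tap water. The labels call the genotype of both groups APP Transgenic and name a treatment only for the caffeine group. Nuclei were isolated from frozen hippocampi and sorted for NeuN, the neuronal nuclear protein encoded by Rbfox3. The labels give 6 mice per group for the nuclei isolation and the methods give 3 samples per group, so whether a library stands for 1 mouse or for pooled mice could not be settled, and p-values describe the spread between libraries, which may be technical.

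Caffeine blocks adenosine receptors, mainly those encoded by Adora1 and Adora2a, and at higher concentrations inhibits cyclic nucleotide phosphodiesterases and opens ryanodine receptors, the calcium release channels of the endoplasmic reticulum (ER). Adenosine acting on Adora1 lowers cAMP and dampens transmitter release in the hippocampus. RNA in sorted nuclei is mostly recently made transcript, and cytoplasmic RNA is largely lost with the cell body.

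The 6 Tg4-42 libraries held between 9342945 counts (vehicle 1) and 15715069 counts (vehicle 2), so that 3 counts, the floor used here, corresponded to 0.193 to 0.325 CPM, the counts scaled to a common library size. All levels are given as CPM, in the order of replicates 1, 2 and 3, and all differences as log2 fold changes of caffeine over vehicle with a standard error (SE). Adjusted p-values come from the quasi-likelihood test of edgeR with Benjamini-Hochberg adjustment over all 17361 genes, and a gene is named called when this value was below 0.05. Trh, whose signal sequence is part of the transgene, was measured at 48.002, 57.7 and 59.7 CPM in the caffeine libraries, 64.7, 59.5 and 51.3 in the vehicle libraries and 4.39, 2.08 and 1.81 in the WT libraries. Thy1, whose promoter drives the transgene, stood at 509, 571 and 670.1, 639, 516 and 461 and 82.1, 87.4 and 88.8 CPM in the same order. Both genes were far above WT in all 6 Tg4-42 libraries and overlapped between caffeine and vehicle, with differences of -0.08, SE 0.19, adjusted p = 0.862 for Trh and 0.12, SE 0.14, adjusted p = 0.734 for Thy1.

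More genes were lower than higher with caffeine. The test called 153 genes, 116 as decreases and 37 as increases, so that 24.2% of the calls were increases. This corresponds to 0.881% of all genes tested, with 0.213% called higher and 0.668% called lower. Without adjustment, 17.0% of all genes had p below 0.05 (7.15% higher and 9.82% lower). In 23.0% of all genes the 3 caffeine libraries lay all above (10.4%) or all below (12.6%) the 3 vehicle libraries. The median absolute log2 fold change of the called genes was 0.80, the median over all tested genes was -0.01, and 143 of the 153 called genes are annotated as protein coding. The plot of log2 fold change against level shows the called genes at mean levels from 1.19 CPM to 1202.9 CPM.

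**Figure D1:**
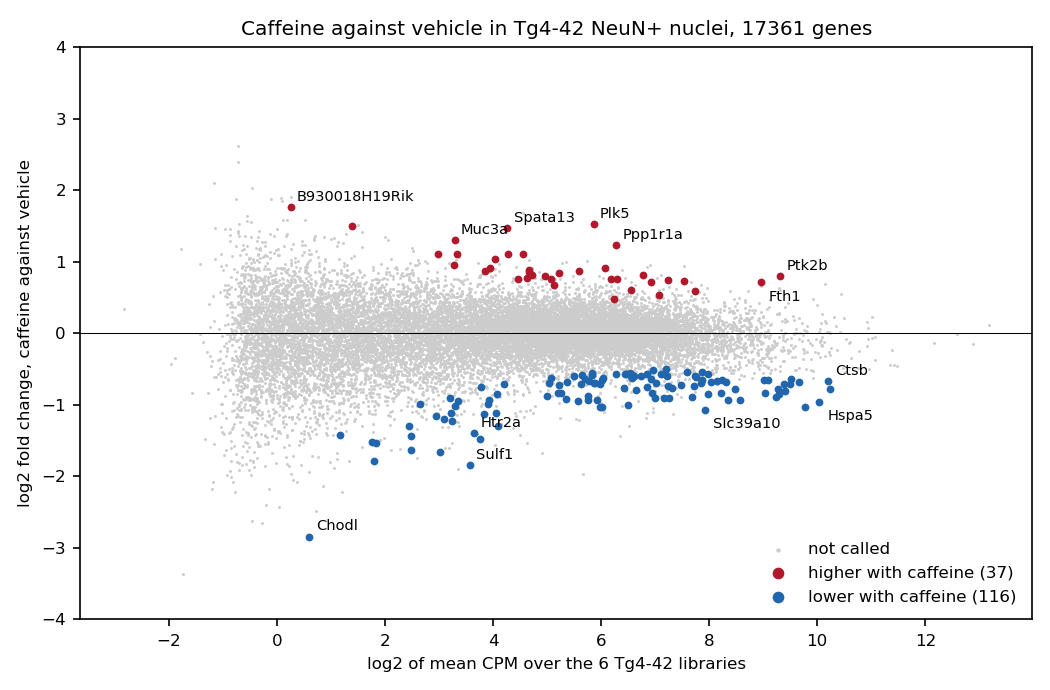
Log2 fold change of caffeine against vehicle for each of the 17361 tested genes (vertical axis) against the log2 of its mean CPM over the 6 Tg4-42 libraries (horizontal axis, a log scale). Red points are the 37 genes called higher and blue points the 116 called lower with caffeine, and grey points are genes that were not called. The smallest called differences were 0.47 for Cnot6 and -0.50 for Ncstn.

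The number of calls changed when single libraries were left out and when the sequencing lane was a term of the fit. It was 0 without caffeine 3, 0 without vehicle 3, 3 without vehicle 1, 58 without caffeine 2, 190 without vehicle 2 and 341 without caffeine 1. In the 2 fits with no calls, edgeR still gave 1641 genes (without caffeine 3) and 1869 genes (without vehicle 3) with an unadjusted p below 0.05. Replicate 3 of each group was sequenced in lane 7 and replicates 1 and 2 in lane 6. A fit with a term for each replicate number, which also separates the lanes, called 187 genes. A fit with lane as a covariate called 9 genes. All 153 kept their sign and an unadjusted p below 0.05 in it, at 0.964 to 1.05 times the log2 fold change without lane. The lanes were split alike in each group, so a lane term can hardly move the difference, and the 153 were chosen on these same libraries. These values are therefore a description. Within lane 6, with 2 libraries against 2, edgeR called none, with 956 genes at an unadjusted p below 0.05. Lane 7 held 1 library per group and gives no test. All 153 called genes kept their sign within lane 6, where their log2 fold changes were, at the median, 0.789 of those over all libraries; since all 153 genes had been chosen in part on the lane 6 libraries, this is a description. The 9 genes called with lane as a covariate were Kit, Ppp1r1a, Spata13, Tmem130, Gaa, Dsc3, Fstl5, Spock1 and Calr, and the 3 called without vehicle 1 were Kit, Tmem130 and Gaa. The plot of calls by fit gives all settings, and each statement below on a called gene carries this limit. DESeq2 called 766 genes (37.6% higher), limma-voom 587 (30.2%), edgeR without a filter on low counts 987 (36.2%) and edgeR after a correction for GC content 257 (35.4%). RLE scaling (144 calls), the version 4 method of edgeR (138) and a correction for transcript length (118) called fewer than 153.

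**Figure D2:**
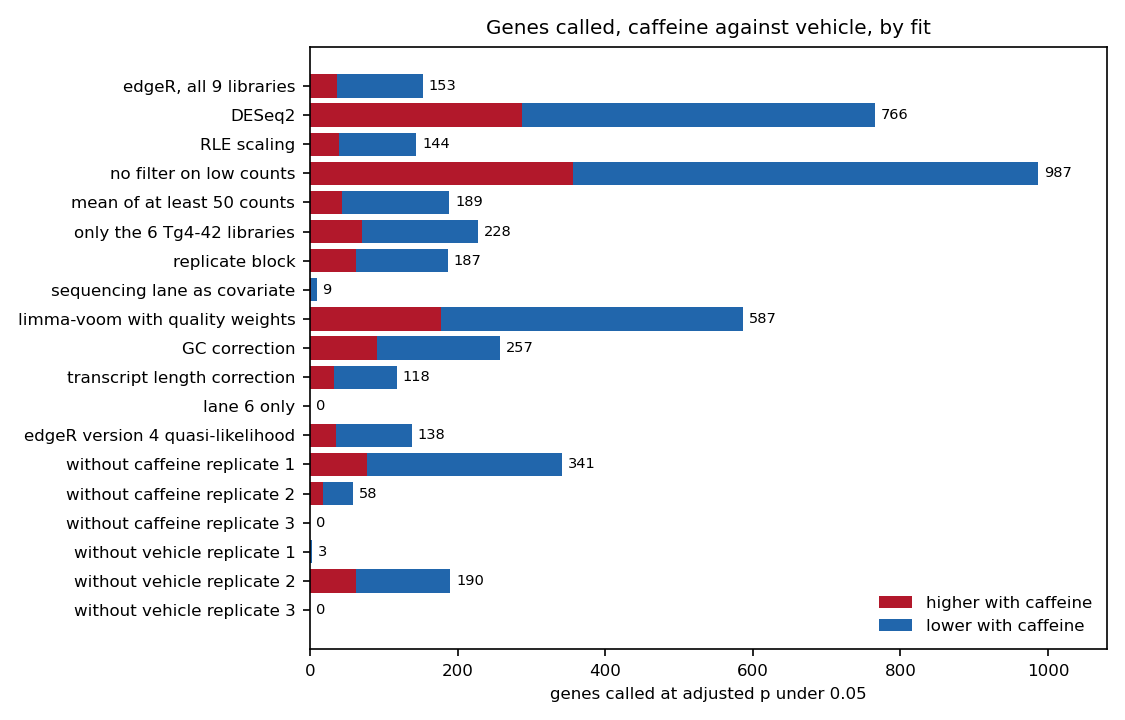
Number of genes called at an adjusted p below 0.05 (horizontal axis) in each fit of caffeine against vehicle (vertical axis), with increases in red and decreases in blue and the total beside each bar. The bars run from 0 calls, without caffeine 3, without vehicle 3 or within lane 6 only, to 987 calls without a filter on low counts.

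Levels of cell type markers moved with the treatment. All marker and pathway lists used here and below were chosen with earlier results of these data known, so their counts are descriptions. Summed over the list, the 13 dentate granule cell markers stood at 1227, 1126 and 1471 CPM in the caffeine libraries and at 860.4, 1049.9 and 529 CPM in the vehicle libraries, so every caffeine library was above every vehicle library. All 13 had a positive log2 fold change, with a median of 0.68, beside 48.5% positive among all genes tested. Markers of interneurons (980.2, 1191 and 1037 against 1452, 1256 and 1838 CPM) were lower in all 3 caffeine libraries, with 15 of 16 genes negative and a median of -0.48. Markers of subiculum and neocortex (612, 430 and 375 against 795, 553 and 879 CPM) and of CA1 pyramidal cells (466, 677 and 486 against 648, 777 and 776 CPM) had medians of -0.61 and -0.41, and their libraries overlapped. Within lane 6 these medians were -0.35 and -0.21, and the one of CA1 cells was -0.25 without vehicle 3. The series' design text speaks of CA neurons, and the dentate markers, Prox1 among them, were present in all 9 libraries. The 3 vehicle libraries were themselves unlike, with vehicle 3 the lowest of all 9 libraries for dentate markers and the highest for interneuron markers.

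Glial RNA was low, and nearly all glial markers had negative differences. Astrocyte markers summed to 205, 172 and 143 CPM with caffeine and 223, 246 and 270 CPM with vehicle, and microglia markers to 41.2, 37.1 and 37.9 against 47.3, 62.1 and 56.5 CPM. Oligodendrocyte markers summed to 388, 307 and 274 against 381, 517 and 536 CPM. Of these lists, 9 of 10 astrocyte, 11 of 11 microglia and 9 of 10 oligodendrocyte genes had a negative log2 fold change and none was called. Pan-neuronal markers summed to between 5373 and 7976 CPM, and Rbfox3 itself stood at 130.3, 126 and 148 CPM with caffeine and 117, 117 and 99.6 CPM with vehicle. In sorted nuclei, fewer nuclei of a type and less RNA per nucleus cannot be told apart. The part of these marker levels in the results below was not tested. Mitochondrial reads made up 0.020% to 0.041% of the counts and Malat1, a nuclear long noncoding RNA, 0.775% to 1.10%, with overlapping ranges in both groups.

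**Figure D3:**
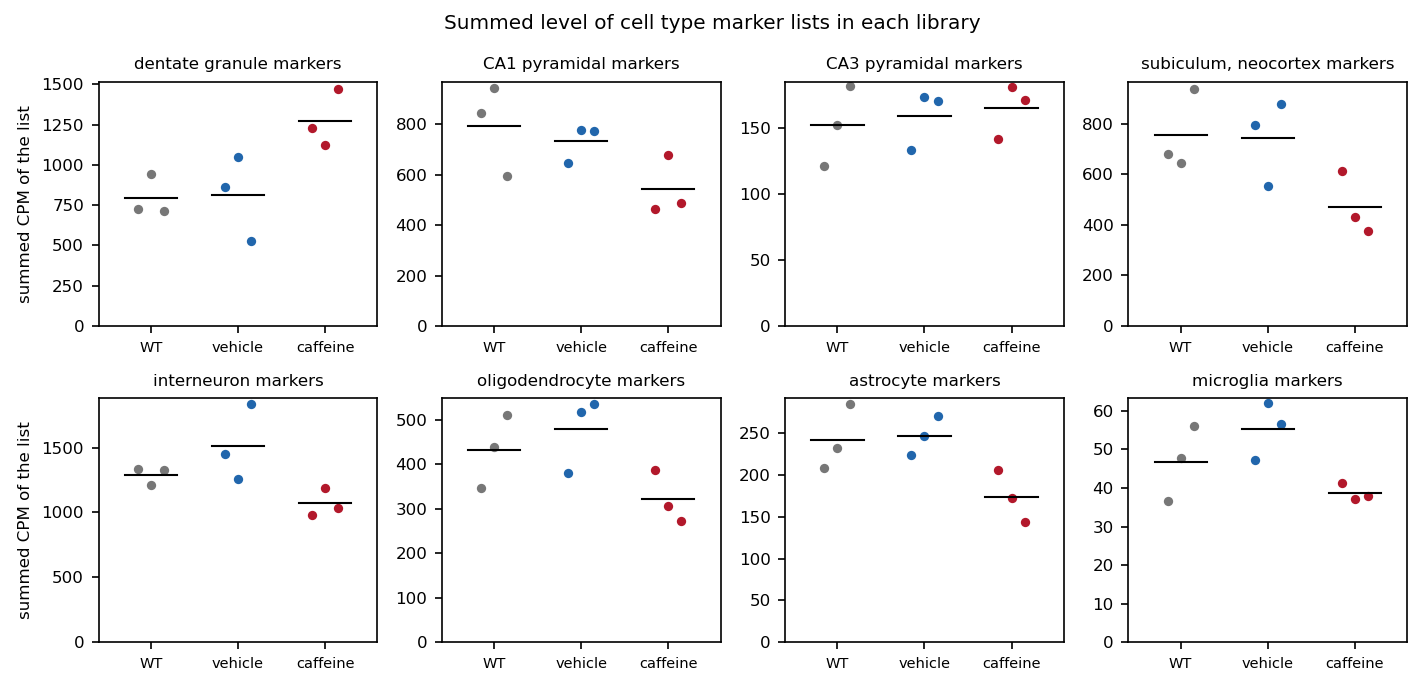
Summed CPM (vertical axis, from 0) of 8 lists of cell type markers in each WT, vehicle and caffeine library (points) with the mean of the 3 libraries (bar). Dentate granule markers are higher in the 3 caffeine libraries than in the 3 vehicle libraries, and interneuron, astrocyte and microglia markers are lower.

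Genes of ER chaperones were among the called decreases. These proteins fold secreted and membrane proteins and check their glycans, and their genes are induced together in the unfolded protein response, through the ER stress response element (ERSE), when unfolded protein builds up. Of 36 tested genes of this list, 7 were called lower, beside 0.668% of all genes. A negative log2 fold change was found in 32, where 48.5% of all genes were positive. In 17 of the 36 all 3 caffeine libraries lay below all 3 vehicle libraries, beside 12.6% of all genes. The median of the list was -0.26. It ranged from -0.27 to -0.19 when single libraries were left out, with 0 to 7 of the genes called, and was -0.18 within lane 6, with none called.

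Hspa5, which encodes BiP, the most abundant Hsp70 chaperone of the ER, was measured at 831, 727 and 574 CPM with caffeine and 1348, 1383 and 1417 CPM with vehicle, a log2 fold change of -0.96, SE 0.17, adjusted p = 0.0385. The vehicle libraries were close to each other and well above all caffeine libraries. WT libraries, at 739, 944 and 1208 CPM, lay between the lowest caffeine and the lowest vehicle library. Calr, which encodes calreticulin, a lectin chaperone that binds calcium, stood at 537, 485 and 458 CPM with caffeine, 887, 831 and 886 with vehicle and 575, 679 and 698 in WT, and fell by 0.81 on the log2 scale (SE 0.13, adjusted p = 0.0211). The order was the same for Hsp90b1 (the ER form of Hsp90), at 498, 466 and 396 CPM with caffeine, 757, 781 and 809 with vehicle and 511, 552 and 666 in WT, and for the disulfide isomerase gene Pdia6, at 422, 437 and 349.7, 674, 616 and 623 and 404, 482 and 540.1 CPM. In Calr, Hsp90b1 and Pdia6 every WT library lay below every vehicle library. For Calr and Hsp90b1 every caffeine library was also below every WT library, whereas the caffeine and WT libraries overlapped for Pdia6. Pdia4 (-0.72, SE 0.15, adjusted p = 0.0428), Hyou1 (-0.69, SE 0.16, adjusted p = 0.0497) and Canx (-0.64, SE 0.14, adjusted p = 0.0462) were the other called members. Vehicle Tg4-42 libraries compared with WT gave log2 fold changes of 0.52 for Hspa5, 0.42 for Calr, 0.44 for Hsp90b1 and 0.42 for Pdia6, none of them called, where 0.0979% of all genes were called; both comparisons use the same 3 vehicle libraries. Pdia3, another disulfide isomerase, was at -0.55, SE 0.18, adjusted p = 0.135 and was not called.

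The upstream sequences of the called ER chaperone genes are shown because 5 of the 6 that have a window hold an ERSE, while Hyou1 had no entry. The element was searched as the letters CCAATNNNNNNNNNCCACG on both strands of the RefSeq promoter windows (250 bases before to 50 after the start, build GRCm38.p6). Each line gives the 250 bases before the start of transcription, 5′ to 3′ on the strand of the gene, with the match in capitals.
Hspa5, chr2:34771840-34772089, plus strand: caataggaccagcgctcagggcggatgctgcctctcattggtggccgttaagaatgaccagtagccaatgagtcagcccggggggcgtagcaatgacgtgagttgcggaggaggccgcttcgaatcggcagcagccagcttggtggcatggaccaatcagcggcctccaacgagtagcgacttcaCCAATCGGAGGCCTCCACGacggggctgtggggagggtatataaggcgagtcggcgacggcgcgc
Calr, chr8:84846932-84847181, minus strand: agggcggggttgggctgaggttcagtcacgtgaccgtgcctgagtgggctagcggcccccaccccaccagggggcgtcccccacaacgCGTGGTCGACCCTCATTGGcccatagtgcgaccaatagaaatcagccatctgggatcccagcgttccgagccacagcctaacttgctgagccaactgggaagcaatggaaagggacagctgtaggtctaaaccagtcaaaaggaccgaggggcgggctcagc
Hsp90b1, chr10:86705445-86705694, minus strand: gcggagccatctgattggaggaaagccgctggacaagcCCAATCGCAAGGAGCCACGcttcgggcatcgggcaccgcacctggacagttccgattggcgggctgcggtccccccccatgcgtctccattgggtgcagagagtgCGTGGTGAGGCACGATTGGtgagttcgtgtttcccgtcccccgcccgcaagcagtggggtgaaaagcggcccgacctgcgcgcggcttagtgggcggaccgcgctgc
Pdia6, chr12:17266339-17266588, plus strand: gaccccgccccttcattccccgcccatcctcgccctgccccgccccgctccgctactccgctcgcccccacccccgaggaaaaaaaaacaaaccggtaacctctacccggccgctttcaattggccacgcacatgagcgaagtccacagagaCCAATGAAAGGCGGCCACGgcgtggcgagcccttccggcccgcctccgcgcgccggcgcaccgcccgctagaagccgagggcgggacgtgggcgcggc
Canx, chr11:50325674-50325923, minus strand: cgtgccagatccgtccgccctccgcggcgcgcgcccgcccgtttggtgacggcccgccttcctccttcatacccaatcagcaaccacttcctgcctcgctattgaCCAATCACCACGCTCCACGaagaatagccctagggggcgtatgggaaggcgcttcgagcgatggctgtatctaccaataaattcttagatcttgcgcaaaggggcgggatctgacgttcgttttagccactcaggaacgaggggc
The match begins 65 bases before the start in Hspa5, 98 in Pdia6 and 145 in Canx, and lies on the opposite strand in Calr, 162 bases before the start. Hsp90b1 holds 2 matches, the first 212 bases before the start and the second, on the opposite strand, 107 bases before it.

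The ERSE letters occurred in 0.119% of the 32851 promoter windows in the table, which cover 27025 genes. A window was given for 11644 of the tested genes and for 109 of the 153 called genes, with 20 of those higher and 89 lower. Among the tested genes with a window, 18 held the ERSE. Of these, 16 had a negative log2 fold change, their median was -0.48, and 5 were called, all lower. The 5 are the chaperone genes shown above, so they are no separate result. Over all tested genes, 48.5% were positive, 0.213% were called higher and 0.668% called lower. The cAMP response element, TGACGTCA, was found in 1.79% of windows and in 403 tested genes, with a median of -0.04 and with Clstn3, Ints7 and Shisa5 called lower. The lysosomal gene motif TCACGTGA was found in 0.974% of windows and in 240 tested genes, with a median of -0.01 and with Calr and Slc35a5 called lower. The 3 calls for TGACGTCA and the 2 for TCACGTGA are close to the share called lower over all genes. The matches to ERSE and to TCACGTGA in Calr do not overlap. A match marks letters and no binding, and these counts are descriptions.

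Genes of protein entry into the ER, N-glycosylation and GPI anchoring, a list added to the others after values were seen, had 63 of 78 members negative. The median of the list was -0.18 and 5 decreases were called, beside 0.668% of all genes called lower. The called members were Pigg (-0.73, SE 0.15, adjusted p = 0.0399) and Pigs (-0.57, SE 0.11, adjusted p = 0.0399), of GPI anchor synthesis and transfer, Os9 (-0.61, SE 0.13, adjusted p = 0.0399), a lectin of ER-associated degradation, Emc1 (-0.60, SE 0.12, adjusted p = 0.0399), of the ER membrane insertion complex, and Rpn2 (-0.58, SE 0.12, adjusted p = 0.0428), a subunit of oligosaccharyltransferase. Rpn1, of the same enzyme, was at -0.61, SE 0.16, adjusted p = 0.0895 and missed the threshold. Heat shock genes of cytosol and mitochondria had no called member among 44, with 30 negative and a median of -0.13. This median was 0.0015 within lane 6 and -0.04 without vehicle 3, up to 3 of the genes were called in an alternative fit, and Hspa8, the constitutive cytosolic Hsp70, was at -0.68, SE 0.16, adjusted p = 0.0559. Proteasome subunits had 19 of 37 members negative, a median of -0.01 and no calls. The difference between these lists was not tested.

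Sterol synthesis genes fell with caffeine in 4 cases. The list of sterol synthesis genes and other targets of SREBP, a transcription factor controlled by sterols, had 33 of 37 tested members negative. The median of the list was -0.40 and 4 decreases were called. Over all genes, 0.668% were called lower and 48.5% were positive. In 20 of the 37, all 3 caffeine libraries lay below all 3 vehicle libraries, beside 12.6% of all genes. When single libraries were left out the median ranged from -0.47 to -0.28 with 0 to 9 calls, and it was -0.27 within lane 6. Sqle, the squalene epoxidase, stood at 114, 99.9 and 83.3 CPM with caffeine and 149, 161 and 174 CPM with vehicle (-0.70, SE 0.16, adjusted p = 0.0493), and caffeine 1 lay nearest to the vehicle libraries. The vehicle libraries lay within the range of the WT libraries, which stood at 126, 165 and 194 CPM. Msmo1 (-0.70, SE 0.15, adjusted p = 0.0469) and Dhcr7 (-0.56, SE 0.13, adjusted p = 0.0499), both enzymes of the later steps, were also called. Cyp51 was at 112, 97.3 and 69.2 CPM with caffeine and 153, 151 and 184 with vehicle (-0.81, SE 0.20, adjusted p = 0.069) and missed the threshold, as did Hmgcs1 (-0.60, SE 0.16, adjusted p = 0.0896). Astrocytes and oligodendrocytes make much of the brain's cholesterol, and the marker lists of both were lower with caffeine, as given above; their part in this result was not tested.

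Lysosomal genes were also among the decreases. Of 54 tested genes for lysosome, proton pump and autophagy, 6 fell and none rose, beside 0.668% of all genes called lower, and 42 were negative, where 48.5% of all genes were positive. The median was -0.18, which ranged from -0.23 to -0.07 without single libraries, with 0 to 9 calls, and was -0.01 within lane 6. Gaa, the acid α-glucosidase that degrades glycogen, had one of the smallest p-values of all genes, at 449, 426 and 398 CPM with caffeine, 682, 908 and 776 with vehicle and 684, 703 and 668 in WT (-0.89, SE 0.13, adjusted p = 0.0124). All 3 caffeine libraries were below all 6 others. Ctsb, which encodes cathepsin B, was among the most abundant called genes, at 1081, 882 and 776 CPM with caffeine and 1427, 1371 and 1556 with vehicle (-0.67, SE 0.15, adjusted p = 0.0469). Atp6ap2, an accessory subunit of the proton pump (-0.71, SE 0.15, adjusted p = 0.0427), Glb1, the β-galactosidase (-0.69, SE 0.14, adjusted p = 0.0399), Lamp2, a lysosomal membrane protein (-0.64, SE 0.13, adjusted p = 0.0399), and Atg9a, an autophagy membrane protein (-0.63, SE 0.14, adjusted p = 0.047), completed the called members. Outside the list, the called decreases also held Smpd1, the acid sphingomyelinase (-0.74, SE 0.13, adjusted p = 0.0385), Lgmn, the asparagine endopeptidase legumain (-0.77, SE 0.16, adjusted p = 0.0399), Scpep1, a serine carboxypeptidase (-0.84, SE 0.17, adjusted p = 0.0399), and Pla2g15, the lysosomal phospholipase (-0.58, SE 0.13, adjusted p = 0.0487), all named after their values were seen. Ctsd, the gene of cathepsin D, was at -0.58, SE 0.13, adjusted p = 0.0505, just outside the threshold.

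**Figure D4:**
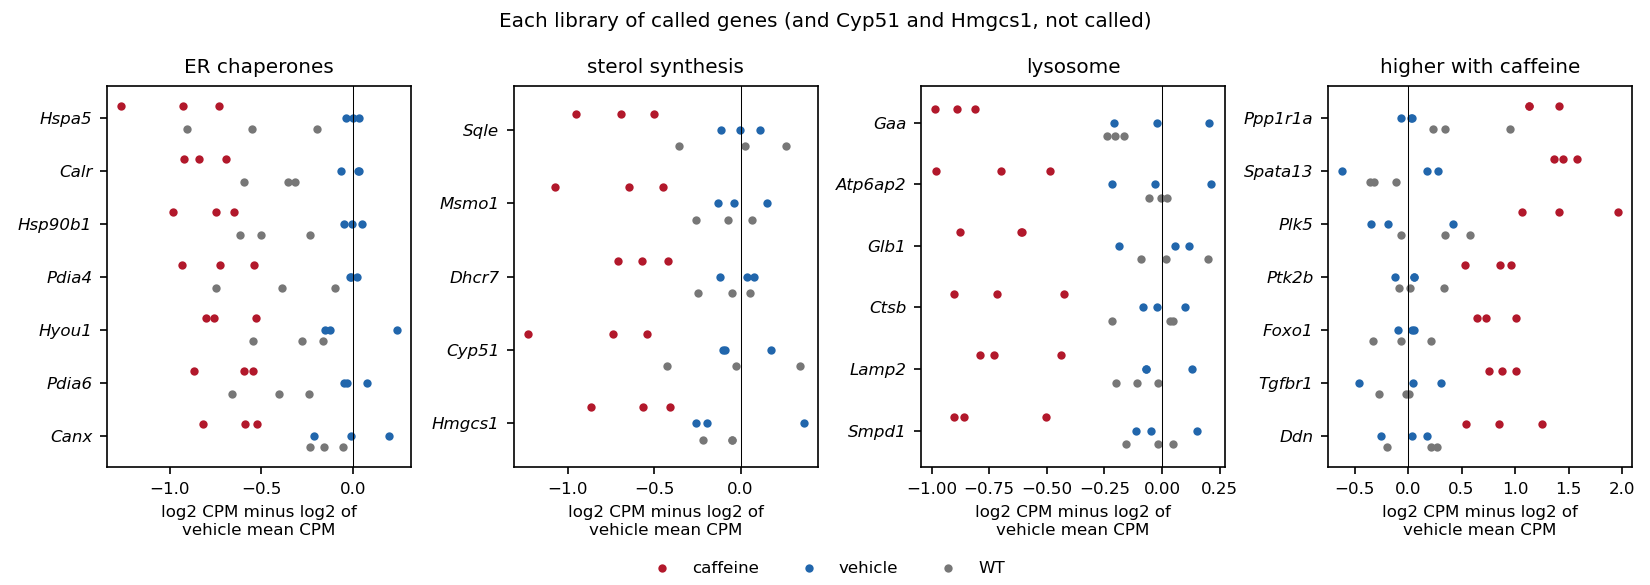
Level of 25 genes in each caffeine (red), vehicle (blue) and WT (grey) library as log2 CPM minus the log2 of the vehicle mean (horizontal axis), for ER chaperone, sterol synthesis and lysosomal genes and for genes higher with caffeine. In every gene shown the 3 caffeine points lie to one side of the 3 vehicle points; Cyp51 and Hmgcs1 were not called.

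Among genes that handle the amyloid precursor protein and its peptides, 2 of 29 were called lower, beside 0.668% of all genes. Of the 29, 23 were negative, with a median of -0.28. Clu, the apolipoprotein J gene and an Alzheimer risk gene, stood at 262, 203 and 177 CPM with caffeine and 369, 341 and 439 CPM with vehicle (-0.84, SE 0.16, adjusted p = 0.0385), and Ncstn, the nicastrin subunit of γ-secretase, at 123, 117 and 125 and 159.8, 175 and 181 CPM (-0.50, SE 0.11, adjusted p = 0.0469). Astrocytes express Clu strongly and the astrocyte markers were lower as well, whose part was not tested. App itself was at 1026, 909.9 and 876 CPM with caffeine and 1074, 1202 and 1139 CPM with vehicle (-0.28, SE 0.13, adjusted p = 0.303), which did not pass the test although the libraries did not overlap. Ide, the insulin-degrading enzyme gene, was at 122, 125 and 122 against 235, 247 and 147 CPM (-0.77, SE 0.22, adjusted p = 0.106), and Ace, a further peptidase, at -1.38, SE 0.34, adjusted p = 0.0692, neither of them called. Outside this list, Qpct, whose glutaminyl cyclase forms pyroglutamate at the ends of peptides, was called at 25.8, 32.8 and 20.99 CPM with caffeine and 40.6, 51.98 and 49.8 CPM with vehicle (-0.84, SE 0.16, adjusted p = 0.0399).

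Several cell adhesion genes fell with caffeine. The lists below stand beside 0.668% of all genes called lower and 48.5% of all genes positive. Of 32 cadherins and protocadherins, which join neurons to each other through calcium-dependent contacts, 6 fell, 23 were negative and the median was -0.35 (-0.35 also within lane 6, and -0.58 to -0.28 without single libraries, with 0 to 9 calls). They were Pcdh18 (-1.15, SE 0.26, adjusted p = 0.0493), Cdh4 (-1.12, SE 0.21, adjusted p = 0.0385), Cdh18 (-0.94, SE 0.19, adjusted p = 0.0405), Cdh10 (-0.84, SE 0.18, adjusted p = 0.0469), Cdh13 (-0.74, SE 0.13, adjusted p = 0.0385) and Cdh2 (-0.57, SE 0.12, adjusted p = 0.0399). Cdh13, a GPI-anchored cadherin that is also high in interneurons, stood at 110.4, 129 and 98.9 CPM with caffeine, 186, 168 and 213 with vehicle and 152, 140.1 and 165 in WT. Of the 54 synaptic adhesion and organizer genes, 5 fell and 45 were negative, with a median of -0.26. Cntnap4, a neurexin-like protein of interneurons, was at 57.8, 70.7 and 51.7 CPM with caffeine and 133, 94.7 and 134 CPM with vehicle (-0.9999, SE 0.17, adjusted p = 0.0362), and Nxph1, the neurexin ligand neurexophilin 1, at 89.8, 126 and 82.8 and 174, 161 and 226 CPM (-0.91, SE 0.16, adjusted p = 0.0385). Clstn3 (-0.83, SE 0.16, adjusted p = 0.0385), Flrt3 (-0.65, SE 0.13, adjusted p = 0.0399) and Slitrk1 (-0.60, SE 0.11, adjusted p = 0.0385), which are postsynaptic or perisynaptic membrane proteins, were the other calls. The desmosomal cadherin gene Dsc3 lay outside these lists and was at 9.12, 7.26 and 4.92 CPM with caffeine, 20.02, 16.3 and 23.6 with vehicle and 24.3, 21.3 and 22.3 in WT (-1.49, SE 0.22, adjusted p = 0.0124), so that all 3 caffeine libraries were below the 6 others.

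Among transmitter receptors and neuropeptides each call was a decrease, and most members had negative values. For comparison with the lists below, 0.668% of all genes were called lower and 48.5% were positive. Among 36 receptors for monoamines and acetylcholine, 2 fell. Htr2a (a serotonin receptor) was at 8.67, 6.98 and 5.07 CPM with caffeine and 15.8, 13.3 and 25.6 CPM with vehicle (-1.40, SE 0.26, adjusted p = 0.0385) and Adra1a (an α1-adrenergic receptor) at 5.73, 4.49 and 5.15 and 12.7, 10.8 and 12.1 CPM (-1.21, SE 0.24, adjusted p = 0.0399). Of the other members 29 were negative and 5 positive, the list's median was -0.40, and Drd1, a dopamine receptor gene, was at -0.69, SE 0.17, adjusted p = 0.0713 and was not called. Among 30 neuropeptide and granin genes 27 were negative, with a median of -0.53, and Chga, the granule protein chromogranin A, was the 1 called member (-0.55, SE 0.12, adjusted p = 0.0469). Vip (-1.13, SE 0.42, adjusted p = 0.233), Sst (-0.64, SE 0.25, adjusted p = 0.222), Vgf (-1.01, SE 0.27, adjusted p = 0.104) and Scg3 (-0.73, SE 0.17, adjusted p = 0.0562) did not pass the test. Of 25 genes of GABA and glycine transmission, 22 were negative and Slc32a1, the vesicular GABA transporter, was called at 8.38, 13.1 and 9.84 CPM with caffeine and 16.3, 21.9 and 21.4 CPM with vehicle (-0.93, SE 0.20, adjusted p = 0.0462). Gad1 (-0.40, SE 0.15, adjusted p = 0.184), Gad2 (-0.43, SE 0.16, adjusted p = 0.187) and Gabra3 (-1.10, SE 0.24, adjusted p = 0.0562) were not called. Interneurons express Sst, Vip, Gad1, Gad2 and Slc32a1, and their marker list, which shares Slc32a1 and the called gene Chodl with this account, was lower in all 3 caffeine libraries, as given above; its part in these results was not tested.

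Chodl, which encodes the lectin chondrolectin and marks a class of interneurons, had the largest called change of all genes. It was at 0.147, 0.346 and 0.615 CPM with caffeine and 1.95, 3.08 and 2.97 CPM with vehicle (-2.85, SE 0.56, adjusted p = 0.0399), while WT spread over 1.73, 0.505 and 2.26 CPM. Its levels were low, with caffeine 1 under the floor of 3 counts. Sulf1, an enzyme that trims heparan sulfate outside the cell, followed at 6.03, 6.36 and 2.998 against 18.8, 12 and 24.8 CPM (-1.84, SE 0.31, adjusted p = 0.0362). The remaining 13 of the 15 largest decreases were, in order, Pth2r, Gm26760, 4930539E08Rik, Gm39822, Abca6, Dsc3, Nxph2, Igtp, Htr2a, Lrrc3, Cldn1, Hgf and Adra1a, with log2 fold changes from -1.79 to -1.21. These include a parathyroid hormone receptor gene (Pth2r), a claudin of tight junctions (Cldn1), the hepatocyte growth factor gene Hgf, at 4.78, 7.47 and 4.61 CPM with caffeine and 13.6, 9.18 and 17.1 CPM with vehicle, and 2 long noncoding RNAs, Gm26760 and Gm39822.

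Kit, the stem cell factor receptor gene, had the smallest p-value of all genes. It stood at 104, 109.6 and 107 CPM with caffeine, 177, 203 and 218 with vehicle and 196, 193 and 214 in WT (-0.90, SE 0.12, adjusted p = 0.012), and the 3 caffeine libraries were close to each other and below the other 6. Tmem130, a transmembrane protein gene, showed the same order at 273, 287 and 228, 457, 493 and 558 and 485, 451 and 464 CPM (-0.94, SE 0.13, adjusted p = 0.012). Fstl5 (-0.94, SE 0.15, adjusted p = 0.0304), Plxdc2 (-0.93, SE 0.15, adjusted p = 0.0304) and Mrgpre (-0.99, SE 0.16, adjusted p = 0.0304) were the other decreases among the 10 smallest p-values that have not been described. Among the abundant called genes, Serpini1, the gene of neuroserpin, was at 742, 578 and 404 CPM with caffeine and 1134, 873 and 1531 CPM with vehicle (-1.04, SE 0.22, adjusted p = 0.0462), and the chemokine gene Cx3cl1 at 1088, 758 and 804 and 1510.2, 1428 and 1629 CPM (-0.79, SE 0.16, adjusted p = 0.0399). Cd200, whose product signals to microglia as that of Cx3cl1 does, was at 248, 252 and 170.2 and 441, 346 and 499 CPM (-0.94, SE 0.16, adjusted p = 0.0365). Serpini1, Cx3cl1 and Cd200 were named after their values were seen.

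Further calls came from transporter and receptor genes. Of 232 solute carriers, 7 including Slc32a1 fell, none rose and 157 were negative, with a median of -0.13. For this list and those below, the shares over all genes were 0.668% called lower, 0.213% called higher and 48.5% positive. Slc39a10, a zinc importer, was at 192, 152 and 126 CPM with caffeine and 295, 296 and 395 CPM with vehicle (-1.07, SE 0.19, adjusted p = 0.0385), and Slc4a10, a bicarbonate transporter of neurons, at 487, 416 and 366 and 660.3, 667 and 666 CPM (-0.65, SE 0.13, adjusted p = 0.0399). Slc7a3, Slc1a4, Slc38a7 and Slc35a5 ranged from -0.89 (Slc7a3) to -0.52 (Slc35a5). Ntrk2, the receptor gene for brain-derived neurotrophic factor, fell by 0.66 on the log2 scale (SE 0.14, adjusted p = 0.0457), at 191, 166 and 184 CPM with caffeine and 279, 261 and 313 CPM with vehicle, as the 1 call among 10 neurotrophin genes. Grm8, a presynaptic metabotropic glutamate receptor gene, was the 1 call among 36 glutamate receptor genes (-0.71, SE 0.15, adjusted p = 0.0457). The guidance cues Sema3c (-0.63, SE 0.14, adjusted p = 0.047) and Sema3e (-0.60, SE 0.12, adjusted p = 0.0399) were called among 59 axon guidance genes. Hs6st2, a heparan sulfate sulfotransferase (-0.77, SE 0.16, adjusted p = 0.0399), joined Sulf1 among 43 matrix genes. Dkk3, a secreted protein of the Dickkopf family, fell (-0.71, SE 0.16, adjusted p = 0.0499) and Tgfbr1, a TGF-β receptor gene, rose (0.88, SE 0.18, adjusted p = 0.0399) among 51 genes of Wnt, Notch and TGF-β signalling.

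Ppp1r1a and Spata13 were among the 15 largest increases. Ppp1r1a encodes inhibitor 1 of protein phosphatase 1, which acts once the cAMP-dependent protein kinase has phosphorylated it. It was at 101, 102 and 123 CPM with caffeine, 47.7, 47.2 and 44.3 with vehicle and 54.6, 89.9 and 59.03 in WT (1.23, SE 0.17, adjusted p = 0.012), and every caffeine library was above the other 6. Spata13, an exchange factor for small GTPases, stood at 27.9, 26.3 and 30.4, 11.6, 12.4 and 6.67 and 8.002, 9.47 and 8.21 CPM in the same order (1.46, SE 0.21, adjusted p = 0.0124). Plk5, a polo-like kinase gene that is also in the dentate granule marker list, was at 62.5, 79.7 and 117, 26.3, 40.04 and 23.5 and 28.6, 44.7 and 38.1 CPM (1.52, SE 0.26, adjusted p = 0.0385). Ptk2b, the calcium-activated tyrosine kinase Pyk2 and an Alzheimer risk gene, was called at 843, 673 and 907 CPM with caffeine and 485, 483 and 428 CPM with vehicle (0.80, SE 0.15, adjusted p = 0.0385) and was named after its values were seen. The low-level noncoding RNA B930018H19Rik had the largest increase among the called genes (1.76, SE 0.38, adjusted p = 0.0462), at 1.62, 2.01 and 1.92 CPM with caffeine and 0.541, 0.513 and 0.562 CPM with vehicle. DESeq2 gave no adjusted p for it, nor for Chodl.

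The rest of the 15 largest increases were Gm42636, Muc3a, Emx2os, Ccbe1, Lrrc10b, Mfsd13b, Gm4660, Gm19031, Inf2, Ddn and Tgfbr1, with log2 fold changes from 1.49 for Gm42636 to 0.88 for Tgfbr1. Ddn, the dendrin gene of dendrites and postsynapses, was at 83.7, 67.9 and 111 CPM with caffeine and 52.8, 47.9 and 39.1 CPM with vehicle (0.91, SE 0.18, adjusted p = 0.0399), and Inf2, a formin that assembles actin, at 21.8, 14.1 and 24.4 and 11.8, 10.8 and 9.32 CPM (0.92, SE 0.21, adjusted p = 0.0497). Emx2os lies antisense to Emx2, and without a statement on strand its reads cannot be told from those of Emx2. Gm4660 and Gm19031 are processed pseudogenes, and the genes they were copied from could share their reads. Among transcription factor genes, named after their values were seen, Foxo1 (0.80, SE 0.16, adjusted p = 0.0399), Tead1 (0.86, SE 0.18, adjusted p = 0.0399), Bhlhe22 (0.77, SE 0.17, adjusted p = 0.0469) and Bcl11b (0.75, SE 0.17, adjusted p = 0.0469) rose. Bcl11b, whose product also joins the BAF remodelling complex, was the 1 call among 34 chromatin remodellers, beside 0.213% of all genes called higher. Of the 34, 23 were positive, beside 48.5% of all genes. Bptf, a further member, was at 0.56, SE 0.13, adjusted p = 0.0507, just outside the threshold. Fth1, the ferritin heavy chain gene and also named after its values were seen, rose at 628, 561 and 652 CPM with caffeine against 362, 384 and 382 CPM with vehicle and 464, 678 and 489 CPM in WT (0.71, SE 0.15, adjusted p = 0.0399); processed copies of this gene in the genome could share its reads.

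Postsynaptic scaffold and CaMKII genes had 21 of 29 members positive and a median of 0.22, with Iqsec2, an exchange factor of the postsynaptic density, called at 31.9, 28.6 and 39.7 CPM with caffeine and 19.2, 19.9 and 18.2 CPM with vehicle (0.81, SE 0.17, adjusted p = 0.0399). Camk2b was at 781, 637 and 883 against 469.6, 572 and 440.2 CPM (0.63, SE 0.15, adjusted p = 0.0639) and was not called. For this list and those below, 48.5% of all genes were positive, 0.213% were called higher and 0.668% called lower. On the presynaptic side, Cplx2, the complexin 2 gene, rose (0.74, SE 0.16, adjusted p = 0.0462) and Sv2b, a synaptic vesicle glycoprotein gene, fell (-0.85, SE 0.19, adjusted p = 0.0469) among 60 genes, of which 37 were negative. Syt1 (-0.44, SE 0.14, adjusted p = 0.132) and Sv2a (-0.56, SE 0.13, adjusted p = 0.0534) did not pass the test. Cytosolic ribosomal protein genes had 69 of 79 members positive and a median of 0.18 with edgeR calls for none, 10 of them at an unadjusted p below 0.05, and 0 called in DESeq2 and every other fit. Oxidative phosphorylation genes had 57 of 78 positive, a median of 0.08 and Cox6c as their 1 call (0.53, SE 0.11, adjusted p = 0.0437). Histone and DNA modifying enzymes had 49 of 65 positive, a median of 0.13 and no call, with 8 higher and 2 lower at an unadjusted p below 0.05. Of all genes, 7.15% were higher and 9.82% lower at this unadjusted p.

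**Figure D5:**
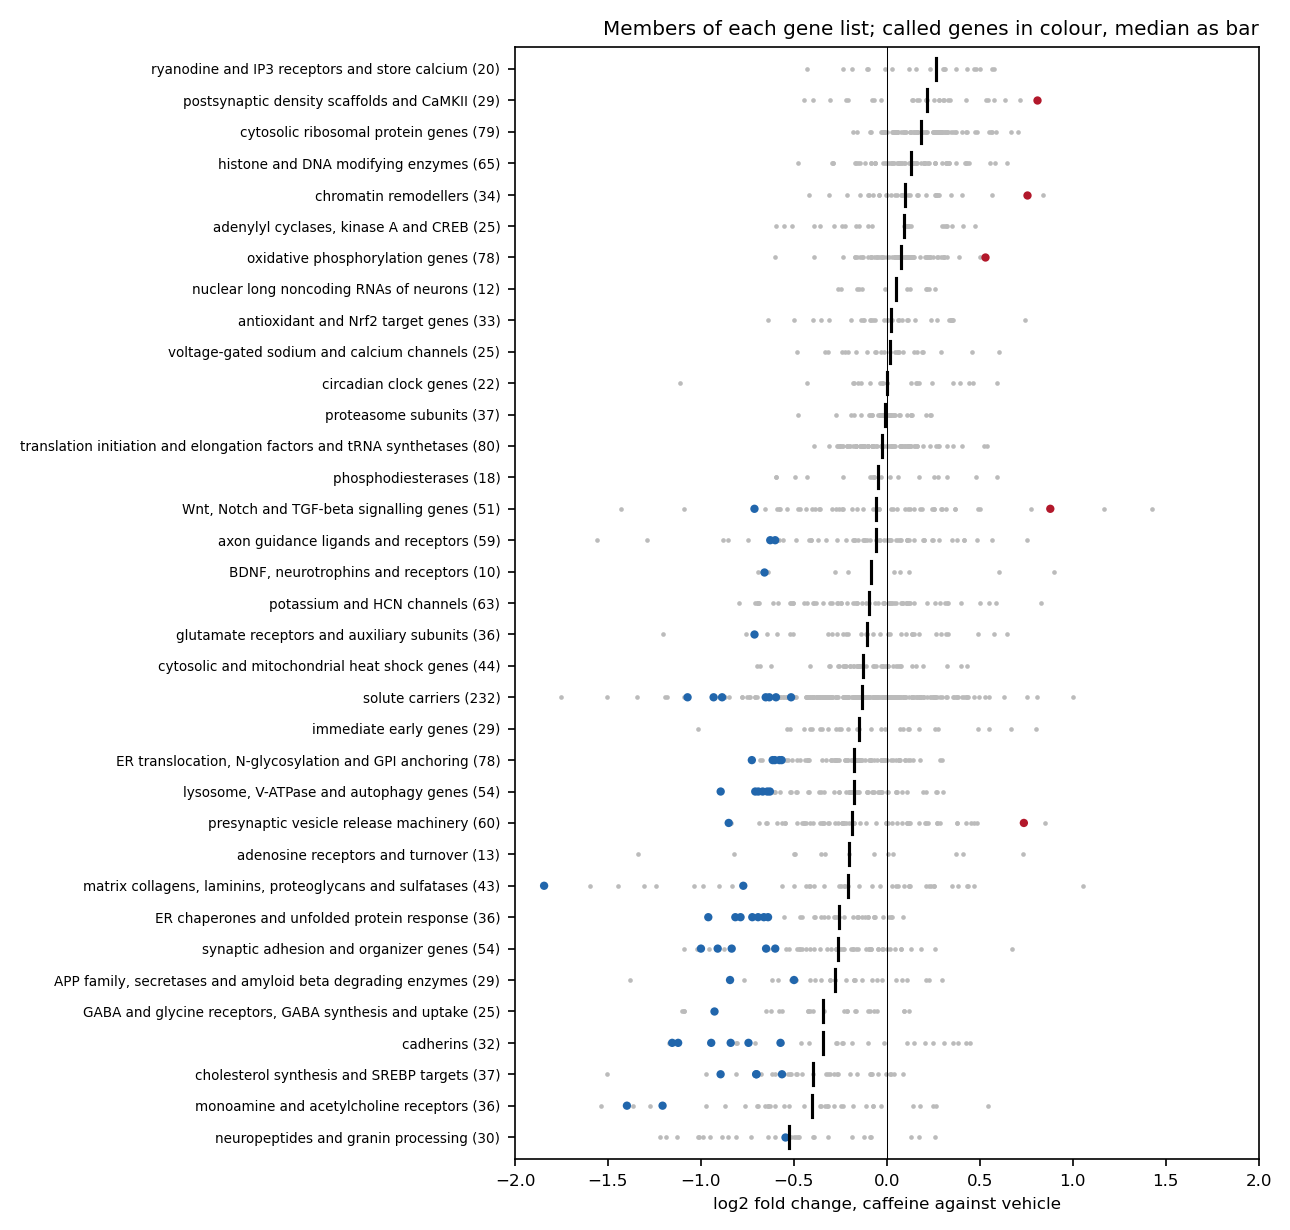
Log2 fold change of caffeine against vehicle (horizontal axis) of each tested member of the 35 pathway lists (vertical axis, number of tested genes in brackets), with uncalled genes in grey, called genes in red (higher) or blue (lower) and the median as a bar. Medians run from -0.53 for neuropeptides to 0.27 for ryanodine and IP3 receptors and store calcium, which were at -0.34 and 0.08 within lane 6.

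In the list of 13 dentate granule cell markers, 2 were called higher, beside 0.213% of all genes. Besides Plk5, Stxbp6, which encodes the SNARE-binding protein amisyn, was called in this list at 153, 108 and 157 CPM with caffeine and 70.996, 98.1 and 69.9 CPM with vehicle (0.81, SE 0.16, adjusted p = 0.0399). Prox1, the transcription factor that defines granule cells, was at 157, 113 and 183 against 95.9, 93.8 and 47.9 CPM (0.93, SE 0.25, adjusted p = 0.105), Dsp, a desmosomal gene of granule cells, at 46.02, 16.7 and 43.98 against 17.1, 10.9 and 5.62 CPM (1.68, SE 0.44, adjusted p = 0.111), and Lct at 0.99, SE 0.26, adjusted p = 0.0922. The libraries of Dsp overlapped and none of these 3 was called. Among the 12 alternative fits other than those without single libraries, Dsp and Prox1 were each called in 2 and Lct in 4. Between 0 and 9 of the 13 markers were called in these fits. The study reported Dsp as the gene most strongly raised by caffeine, and stained its protein in the dentate gyrus. Dcx, the marker of immature neurons, was at 141, 157 and 97.9 CPM with caffeine and 205, 159.8 and 192 CPM with vehicle (-0.49, SE 0.18, adjusted p = 0.192). Of the 7 tested markers of progenitors and immature neurons, Dcx among them, 4 were positive and none was called, and their median of 0.02 changed sign in 7 of the 18 alternative fits. How far the increases are those of granule cell genes was not tested.

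The direct targets of caffeine were not called with edgeR. Adora1 was at 259, 210.3 and 232 CPM with caffeine and 269, 255 and 283 CPM with vehicle (-0.20, SE 0.14, adjusted p = 0.5), and the libraries overlapped. Adora2a, Adora2b and Adora3 held too few counts to be tested, with means over the 9 libraries of 6.67, 5 and 2.22 counts. Of 18 phosphodiesterases, 8 were positive and 10 negative, and those with the smallest p-values were Pde1a (-0.60, SE 0.19, adjusted p = 0.14), Pde4b (-0.49, SE 0.13, adjusted p = 0.0895) and Pde1b (0.48, SE 0.12, adjusted p = 0.0802), of which the first pair was lower and Pde1b higher in all 3 caffeine libraries. Among the 12 alternative fits other than those without single libraries, Pde1b was called in 4, Pde4b in 3 and Pde1a in 1. The ryanodine receptor genes were at 0.47, SE 0.18, adjusted p = 0.206 for Ryr1, 0.23, SE 0.14, adjusted p = 0.429 for Ryr2 and 0.31, SE 0.20, adjusted p = 0.442 for Ryr3, and the list of store calcium genes had 14 of 20 positive, a median of 0.27 and no call, with Jph1, which tethers the ER to the plasma membrane, at 0.58, SE 0.16, adjusted p = 0.0952. With edgeR, 7 of its genes were higher and 1 lower at an unadjusted p below 0.05, beside 7.15% and 9.82% of all genes. Up to 3 genes of the list were called in an alternative fit. The median of this list was 0.08 within lane 6 and 0.15 without vehicle 3.

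With edgeR, no call was made among 25 genes of adenylyl cyclases, kinase A and CREB, 29 immediate early genes, 22 circadian clock genes, 63 potassium and HCN channels, 25 sodium and calcium channels, 33 antioxidant genes or 80 translation genes. An unadjusted p below 0.05 was reached by 8 of the cyclase and kinase genes, 4 immediate early genes, 4 clock genes, 17 potassium channel genes, 3 sodium and calcium channel genes, 8 antioxidant genes and 8 translation genes, beside 17.0% of all genes. In the alternative fits up to 4 of the cyclase and kinase genes, 3 immediate early genes, 1 clock gene, 10 potassium channel genes and 1 sodium or calcium channel gene were called, and none of the antioxidant or translation genes. Immediate early genes, which neurons switch on within minutes of activity, varied widely between libraries of 1 group. Fos was at 72.3, 22.4 and 6.07 CPM in the caffeine libraries and 37.6, 36.3 and 54.6 CPM in the vehicle libraries (-0.35, SE 0.83, adjusted p = 0.871) and Arc at 344, 109 and 105 and 189, 252 and 299 CPM (-0.41, SE 0.51, adjusted p = 0.748). Caffeine 1 was the highest of the 6 libraries for both genes and caffeine 3 the lowest. Jun, at 0.80, SE 0.20, adjusted p = 0.0802, was higher in all 3 caffeine libraries and was not called.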

How the data were processed

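Exon counts per gene were used as deposited by the authors, who, per the study's methods, sequenced single-end reads of 50 bases from SMART-Seq v4 and Nextera XT libraries, aligned them to mm10 with STAR and counted them with featureCounts. Strand use was not given in the sources used here. Gene names came from GENCODE M21 (GRCm38) for 48349 of 48709 identifiers. All 9 libraries were fitted together with edgeR 4.0.16 (R 4.3.3), using TMM scaling, a filter of at least 10 counts in enough libraries and 15 in total, and the robust quasi-likelihood test of caffeine against vehicle. Benjamini-Hochberg adjusted p-values under 0.05 were called. The standard error is the log2 fold change divided by the root of F. Levels are CPM on TMM-scaled library sizes. For data simulated for this comparison, 17130 genes were tested and 66 of 100 genes changed by 1 on the log2 scale and 88 of 100 changed by 2 were called, with 10 false calls. Alternatives used DESeq2 1.42.0 and limma 3.58.1. The members and gene lists were chosen with earlier results of these data known. Named were the 15 called genes with the largest increase, the 15 with the largest decrease, the 10 with the smallest p, called list members, list members with large differences and direct targets of caffeine; genes outside this rule are marked in the text. Replicates of 1 group differed by more than sampling noise, so each library was counted once. The replicate numbers follow accession order; same-numbered caffeine and vehicle libraries deviated from their group means with correlations of 0.152, 0.181 and -0.171 and were not treated as pairs. Promoter windows came from RefSeq (GRCm38.p6). Some list members are counted but not reported here by name.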

Additional observations from a re-analysis of the deposited data

How the results depend on the processing

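The 153 called genes kept their direction in all 18 alternative fits that tested them, but the number of calls did not hold. In all 153 the 3 caffeine libraries lay beyond the 3 vehicle libraries, and every fit reused libraries on which these genes had been chosen. The kept direction is therefore a description. Calls (higher, lower) were 766 (288, 478) with DESeq2, 587 (177, 410) with limma-voom and quality weights, 987 (357, 630) without a filter on low counts, 257 (91, 166) after GC correction, 9 (2, 7) with lane as a covariate and 0 (0, 0) within lane 6, against 153 (37, 116). With only the 6 Tg4-42 libraries 71 genes were called higher. With the replicate block, 187 genes were called, 63 of them higher, and 132 of the 153 were among them. Its numbers do not pair the libraries, but the block also separates the lanes, which were split alike in each group. RLE scaling, a mean filter of 50 counts, length correction and the version 4 method of edgeR gave 118 to 189 calls; the version 4 method and the lane 6 fit were added after the data were seen. Leaving out single libraries gave 0 to 341 calls, 0 to 78 of them higher and 0 to 263 lower, and none without caffeine 3 or vehicle 3. The cause of these shifts was not tested. Among the uncalled genes named in the text, those that changed sign were these: within lane 6 Arc was at 0.0518, Fos at 0.375 and Thy1 at -0.0818, and on leaving out single libraries Fos ranged from -1.58 to 0.144 and Trh from -0.155 to 0.00595. Of 863 alternative list medians, 52 moved by more than the spread between libraries; the median of the lysosomal list ranged from -0.23 to -0.01.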
